A study of Daphnia magna with 24 samples.

Results

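A pair of field waters taken close together at Walker Mine, a former copper mine in California, was set against each other by what they did to gene expression in Daphnia magna. The first was collected downstream of the mine tailings, the finely ground residue of ore processing, and the second from Little Grizzly Creek. All arrays titled for either water were used, which gave 12 of the series' 24 arrays and 6 of its 12 exposures, 3 exposures for each water. The position labels, read as degrees and decimal minutes, put the 2 sampling points 278 m apart, against 2130 m from the tailings point and 2386 m from the creek point to the upstream site of the same study. The tailings group consisted of adult females 14 to 16 days old kept for 24 h in tailings water at 23.5 °C. The Little Grizzly Creek group was of the same age and kept for the same time in creek water. The control on every array was RNA of unexposed animals in COMBO, a defined laboratory medium. All animals came from 1 genetically homogeneous purchased culture. From 10 to 15 whole animals were pooled per exposure, so a value is an average over animals and tissues, and fewer cells of a type cannot be told apart from less RNA per cell.

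Daphnia magna is a freshwater crustacean that filters water continuously and is therefore in close contact with dissolved metals. Copper is an essential cofactor of enzymes such as cytochrome c oxidase and superoxide dismutase, and in excess it is toxic. In water fleas dissolved copper is known for disturbing sodium uptake, and surplus metal is bound by metallothioneins. The study's design text says that copper differed between its sites but gives no concentrations, so the 2 waters cannot be ordered by copper here. The question of this comparison was whether tailings and creek water changed the same features by the same amount, and how large a difference between them can be excluded.

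Each exposure was hybridised on 2 arrays with the Cy3 and Cy5 dyes exchanged. The authors deposited 1 log ratio per array for each of 7680 spotted features, read here as log2, and the mean of both arrays is the value of an exposure. Arrays left between 137 and 1789 features blank, with the most blanks in creek exposure 3 (20.9% and 23.3% on its 2 arrays), followed by tailings exposure 3 (11.7% and 11.3%). The 2 arrays of an exposure correlated between 0.777 and 0.91. The direction of the ratios, likely exposed over control, is not stated, and if it is the opposite every sign below turns. Among these 12 arrays the 30 pairs of one dye orientation correlated between 0.0856 and 0.826, whereas 5 of 132 such pairs in the whole series lay below -0.3. None of the 7680 feature IDs matched the RefSeq gene table, so features carry their ID and no gene name, and no pathway can be counted. Each ID is therefore described by its values alone.

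The features with the largest changes against control at both sites had site means of similar size in tailings and creek water. They were picked for large changes of the same sign in every exposure of both waters. This likeness is therefore partly fixed by the choice. Single exposures of P13DA2 and P9AG7 differed more between the waters than their site means did. P11CH10 stood at 3.76, 3.8 and 3.56 in tailings exposures 1, 2 and 3, and at 3.85, 3.94 and 4.32 in Little Grizzly Creek exposures 1, 2 and 3. P4CB5 stood at 3.71, 3.71 and 3.72 in tailings water and at 3.89, 4.21 and 3.61 in creek water. For P11CH10 the tailings values all lay below the creek values, with differences of -0.0879, -0.142 and -0.761 in exposures 1, 2 and 3, and for P4CB5 the groups overlapped. P13DA2 stood at -3.48, -3.96 and -2.75 in tailings water and at -4.13, -4.28 and -1.76 in creek water. P9AG7 stood at -3.14, -3.17 and -2.71 in tailings water and at -4.17, -2.89 and -1.38 in creek water. In both of these features creek exposure 3 was the one nearest to 0. Tailings minus creek was 0.646, 0.316 and -0.992 in exposures 1, 2 and 3 for P13DA2. For P9AG7 it was 1.03, -0.285 and -1.33. The SD of P13DA2 was 0.61 among tailings and 1.41 among creek exposures, and that of P9AG7 was 0.261 and 1.4 (n = 3 each).

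**Figure D1:**
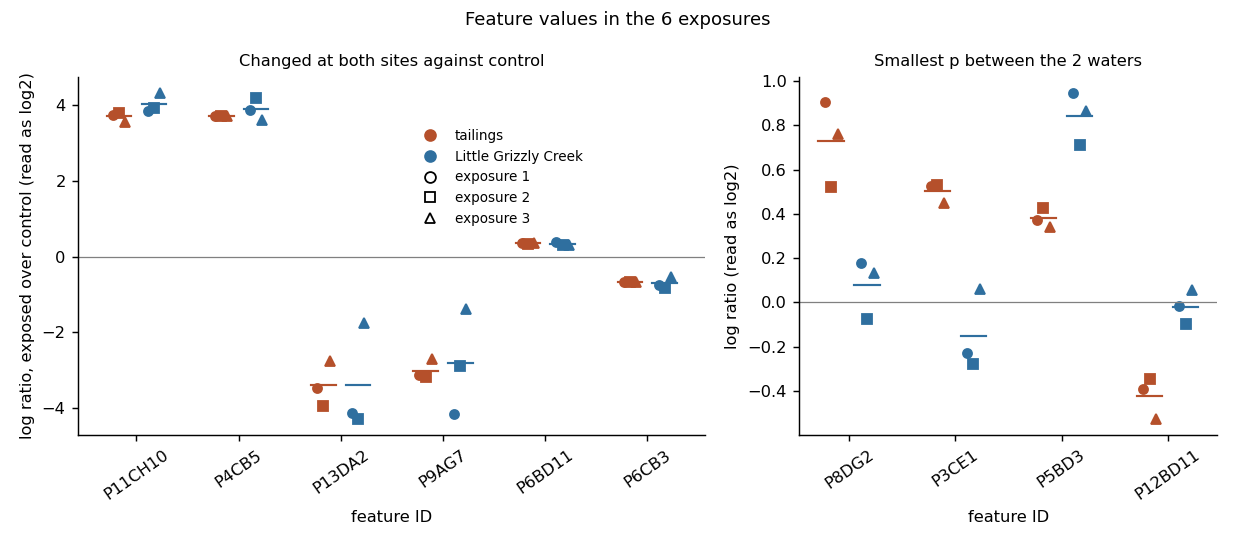
Log ratios (exposed over control, read as log2) of 10 named features in each exposure of tailings water (brown, left of each pair) and Little Grizzly Creek water (blue, right). Symbols mark the exposure number and short lines the mean of 3 exposures. The 6 features of the left panel were picked among those that changed in both waters, P6BD11 and P6CB3 for the narrowest interval of the difference. The 4 of the right panel were picked for the smallest p between the waters among features without overlap.

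The limma fit of all 12 exposures of the series called 552 of 6504 tested features in tailings water against control (8.49%), 398 risen and 154 fallen, and 264 in Little Grizzly Creek water (4.06%), 141 risen and 123 fallen. With the exposure number as a block the counts were 838 (528 risen, 310 fallen) and 658 (206 risen, 452 fallen) of 6315 features. In a fit of the 2 waters alone they were 235 and 158, and with the block 634 (278 risen, 356 fallen) and 687 (161 risen, 526 fallen) of 6062 features. The majority direction in tailings water therefore turned in that last fit. Leaving out tailings exposure 1, 2 or 3 gave 277, 310 and 302 for tailings water, and leaving out creek exposure 1 or 2 gave 104 and 138 for creek water. After quantile normalisation creek water had 179 risen and 77 fallen features, so its split between directions depends on the scaling as well as on the block. Both comparisons are made against unexposed animals, and the labels do not say whether control RNA was shared between them, so their overlap is given only as the values of the features. The 121 features that rose in both waters had a median of 1.45 in tailings and 1.42 in creek water. For the 99 that fell in both, the medians were -1.3 and -1.28. Both sets were chosen for passing in the 2 waters, so their like medians are partly fixed by the choice.

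Without the block more features passed in tailings than in creek water (552 against 264), but in the blocked fit of the 2 waters fewer did (634 against 687), and so it was over IDs starting with A (52 against 66). In the fit without the block, the 277 that rose in tailings water without passing in creek water had a median of 0.455 in tailings and 0.146 in creek water. They were chosen for high tailings values, so the lower creek median is partly fixed by the choice. For 127 of these features the unadjusted p between the waters was under 0.05 by limma, and none passed after adjustment. The share over all tested features was 3.31%, but the choice favours a gap, so the 127 are partly fixed too. This also holds for the sets that follow. The 55 that fell in tailings water without passing in creek water had medians of -0.695 in tailings and -0.559 in creek water, and 6 had such an unadjusted p. Creek water had 20 risen features that did not pass in tailings water, with medians of 0.328 in tailings and 0.575 in creek water, and 24 such fallen features, with medians of -0.715 and -1.19.

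**Figure D2:**
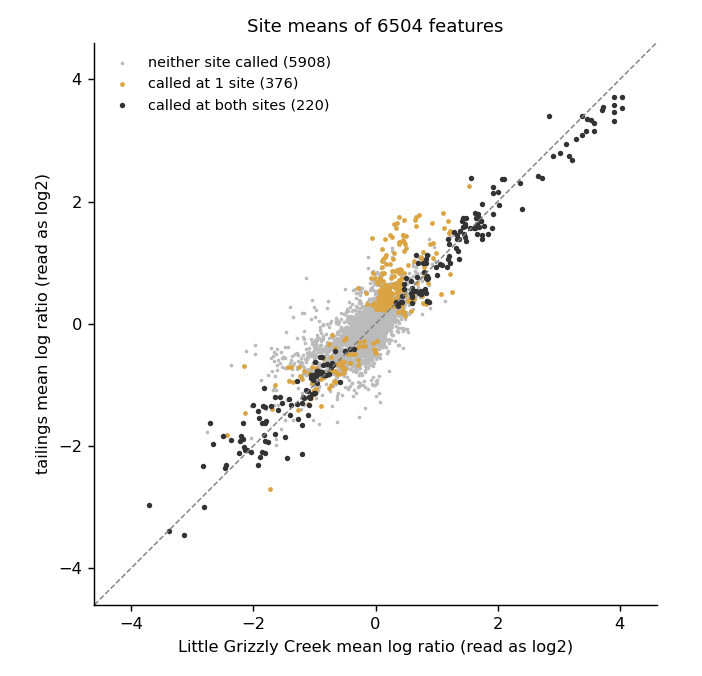
Mean log ratio in tailings water (vertical) against that in Little Grizzly Creek water (horizontal) for the 6504 tested features, with the line of equal response dashed. Black points (220) passed against control at both sites and lie along the line, which that choice favours. Gold points (376) passed at 1 site only, 277 of them as rises in tailings water.

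In the direct comparison of the waters limma called 0 of 6504 features (0%) after Benjamini-Hochberg adjustment, the smallest adjusted p being 0.667. At an unadjusted p under 0.05 there were 215 features (3.31%), 189 higher and 26 lower in tailings water. With the exposure number as a block the count after adjustment was also 0, with 392 of 6315 features at an unadjusted p under 0.05 and a smallest adjusted p of 0.339. None passed in any of the 22 other settings of the fit, where the smallest adjusted p was 0.0745, reached with all 24 arrays entered singly and dye as a term. Among 4846 features with all 6 values, the 3 tailings exposures lay above the 3 creek exposures in 280 (5.78%) and below them in 83 (1.71%).

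Among features without overlap, the 2 higher and the 2 lower in tailings water with the smallest p are given here. P8DG2 stood at 0.906, 0.524 and 0.762 in tailings exposures 1, 2 and 3 and at 0.177, -0.074 and 0.133 in creek exposures. It averaged 0.731 ± 0.193 in tailings and 0.0785 ± 0.134 in creek water (SD, n = 3 each), a difference of 0.652 (95% interval 0.392 to 0.913, adjusted p = 0.667 by limma). In the upstream and portal exposures of the same study it was negative throughout, between -0.406 and -0.194. In creek exposures 1, 2 and 3 its 2 arrays had opposite signs, at -0.25 and 0.604, -0.168 and 0.0197, and -0.307 and 0.573. In tailings exposures they stood at 0.753 and 1.06, 0.647 and 0.402, and 0.418 and 1.11. The SDs are those of array means and leave this disagreement out. P3CE1 stood at 0.528, 0.529 and 0.448 in tailings water and at -0.23, -0.28 and 0.0584 in creek water, also a difference of 0.652 (interval 0.387 to 0.917). The SD among its tailings exposures was 0.0465, and the difference was 0.389 in exposure 3 but 0.758 and 0.809 in exposures 1 and 2. In exposure 3 its arrays stood at 0.105 and 0.791 in tailings and at -0.307 and 0.424 in creek water. In exposures 1 and 2 its arrays kept 1 sign within each water.

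In the other direction the nearest features were P5BD3 and P12BD11. P5BD3 was positive in both waters, at 0.372, 0.429 and 0.339 in tailings and at 0.945, 0.713 and 0.864 in creek exposures. It averaged 0.38 ± 0.0455 in tailings and 0.841 ± 0.118 in creek water (SD, n = 3 each), a difference of -0.461 (interval -0.689 to -0.232, adjusted p = 0.87 by limma). P12BD11 stood at -0.391, -0.348 and -0.525 in tailings water and at -0.0171, -0.0981 and 0.0553 in creek water, a difference of -0.401 (interval -0.6 to -0.203, adjusted p = 0.91 by limma). These 4 features were picked for their p, so their differences are not free of that choice.

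A site mean at least 1 unit apart was rare, at 53 of 6504 features (0.815%). Of these, 48 were higher and 5 lower in tailings water. The 5 lower ones had medians of 0.276, 0.105 and -4.12 in tailings exposures 1, 2 and 3 and of 0.123, -0.191 and 0.449 in creek exposures, so their gap lay in exposure 3. Among the 48, 14 had risen in tailings water against control, 13 of them with IDs that start with P. Their medians were 1.77, 1.05 and 1.85 in tailings exposures 1, 2 and 3 and 0.319, 0.179 and 0.634 in creek exposures. In the upstream exposures they were 0.413, 0.339 and 0.0131, and in the portal exposures -0.0056, 0.142 and 0.0649. The groups did not overlap in 8 of the 11 of these with all 6 values. Among all 4846 tested features with 6 values, the tailings exposures lay above the creek exposures in 280 (5.78%). The 14 were chosen on the tailings values and on the gap itself, which favours groups without overlap. Their medians and the count of 8 are therefore a description only.

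How large a difference the data exclude was read from the 95% interval of tailings minus creek for each feature. The interval lay wholly between -0.5 and 0.5 for 3262 features (50.2%), between -1 and 1 for 5031 (77.4%) and between -2 and 2 for 6097 (93.7%). If the base is 2, a difference of 1 unit is a 2-fold change. The median half-width was 0.366. In equivalence tests (a one-sided moderated test at each margin, with Benjamini-Hochberg adjustment), a difference of 0.5, 1 or 2 units was excluded for 3267, 5232 and 6225 features. With the exposure number as a block, 5342 of 6315 features were held within 1 unit. Features with blanks had wider intervals, the median half-width being 0.333 for the features with all 6 values and 0.474 for the 1658 with fewer. Of the 407 features whose interval reached 2 units or more, 152 had fewer than 6 values.

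The features that changed in both waters were bounded less tightly than the average feature. Of these 220, 149 were held within 1 unit (67.7%, against 77.4% of all features) and 218 within 2 units, with a median half-width of 0.603. Their differences ran from -0.938 to 1.07 with a median of -0.00734, and 109 were positive. For P11CH10 the difference was -0.33 with an interval of -1.75 to 1.09, and for P4CB5 it was -0.19 with an interval of -1.67 to 1.29. For P13DA2 it was -0.0102 (-1.88 to 1.86). The spread behind these intervals is pooled over all 4 sites and takes no account of exposure number. P11CH10 had an SD of 0.129 among tailings and 0.249 among creek exposures, but stood at 2.84 and 0.0535 in portal exposures 1 and 2. P13DA2 varied within the waters themselves, with SDs of 0.61 and 1.41. On the pooled spread the intervals of these strongly changed features still hold differences of 1 unit in both directions.

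The narrowest intervals among features changed in both waters belonged to P6BD11 and P6CB3. P6BD11 stood at 0.366, 0.343 and 0.363 in tailings water and at 0.392, 0.311 and 0.311 in creek water. Its difference was 0.0196 with an interval of -0.164 to 0.203. P6CB3 stood at -0.661, -0.668 and -0.682 in tailings and at -0.756, -0.831 and -0.524 in creek water, a difference of 0.0337 with an interval of -0.215 to 0.283. In both of them any difference larger than 0.283 was outside the 95% interval.

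**Figure D3:**
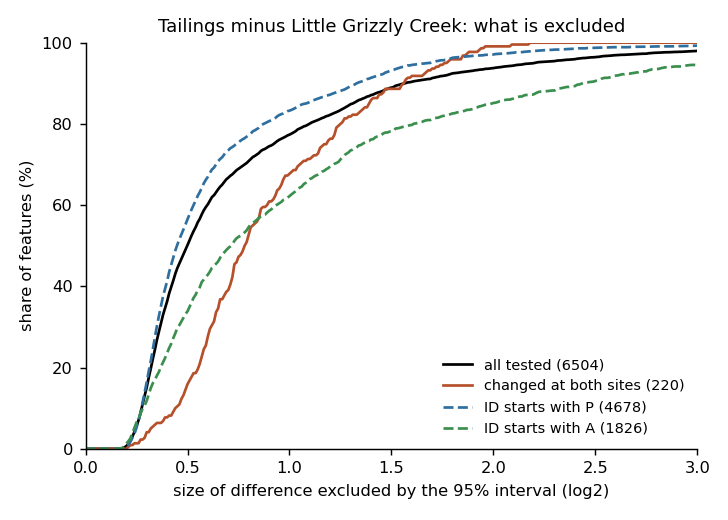
Share of features (vertical, %) for which the 95% interval of tailings minus Little Grizzly Creek excludes differences of at least the size on the horizontal axis (log2). At 1 unit the curve of all 6504 features stands at 77.4%, that of the 220 changed at both sites at 67.7%, that of IDs starting with P at 83.3% and that of IDs starting with A at 62.2%.

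The slope of the tailings response on the creek response was near 1. Over 4909 features with all 6 values, the least-squares slope through the site means was 0.837 for tailings on creek and 0.881 for creek on tailings. Noise in the variable on the horizontal axis lowers such a slope. A slope in which each feature is weighted by its mean response in the other 2 exposure numbers is free of that. It was 0.897 in exposure 1, 0.788 in exposure 2 and 1.25 in exposure 3, a mean of 0.98 ± 0.244 (SD, n = 3 exposure numbers). The 3 values lie on both sides of 1, and a tailings response between 0.788 and 1.25 times the creek response is within what single exposure numbers gave. Among the 174 features with all 6 values that passed at both sites it was 0.961. These were chosen on both responses, so that slope is partly fixed by the choice. It was 0.523 over the 1155 features with IDs that start with A and 1.08 over the 3754 that start with P.

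Within an exposure number the plain slopes were 0.849, 0.716 and 0.605 in exposures 1, 2 and 3. Between different exposure numbers, the 6 slopes of a tailings exposure on a creek exposure ran from 0.159 to 0.786. Control RNA shared within a number would raise the slopes within numbers, and its part in them was not tested. Features are not independent replicates, so no p belongs to a slope across features.

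The SD of the response across features was of similar size in both waters. The median absolute response was higher in tailings water in each exposure number, and larger rises were more numerous in tailings exposures. The SD across the 4909 features was 0.516, 0.523 and 0.708 in tailings exposures 1, 2 and 3 and 0.51, 0.547 and 0.714 in creek exposures (exact permutation p = 0.9, two-sided). The median absolute response was 0.173, 0.161 and 0.199 in tailings and 0.117, 0.125 and 0.174 in creek exposures, and overlapped (exact permutation p = 0.3). Features at least 1 unit above control numbered 185, 151 and 173 in tailings exposures and 97, 75 and 135 in creek exposures. The groups did not overlap, and the exact permutation p was 0.1, the smallest that 3 against 3 exposures allow, or 0.5 adjusted over 5 measures of size. After quantile normalisation the counts were 182, 137 and 134 in tailings and 148, 140 and 130 in creek exposures and overlapped, as they also did with arrays scaled to one spread or with IDs starting with P alone. Features at least 1 unit below control numbered 146, 145 and 382 in tailings and 229, 303 and 324 in creek exposures, and overlapped (exact permutation p = 0.4).

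Within each exposure number the waters differed by more than the error between dye orientations. The median absolute difference was 0.136, 0.161 and 0.189 in exposures 1, 2 and 3, and its median error 0.0519, 0.0624 and 0.0566. That error is the gap between the 2 array pairs divided by 2, so the full gap was larger. The difference tailings minus creek had an SD across features of 0.29 in exposure 1, 0.361 in exposure 2 and 0.627 in exposure 3. These differences were measured alike by both dye orientations: the difference on the first arrays correlated with that on the second at 0.693, 0.778 and 0.759, and 81.8%, 87.5% and 86.2% of its variance across features was shared by the 2 array pairs. Both arrays of an exposure carry the same RNA, so this bears on hybridisation and not on the animals. Each number has 1 exposure per water, and there is no test within it.

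The differences recurred in part between exposures 1 and 2, hardly between 1 and 3, and were partly reversed between 2 and 3. They correlated at 0.42 between exposures 1 and 2, at 0.0428 between 1 and 3, and at -0.378 between 2 and 3 (4909 features). The mean covariance of the difference between numbers was -0.012, against 0.152 for the average of both waters. The median difference was 0.0209, 0.0251 and 0.0461 in exposures 1, 2 and 3, and 1006 features were higher in tailings water in all 3 numbers (20.5%) and 390 lower (7.94%). Both array differences were at least 1 unit upward in 40 features in exposure 1 (0.576%), 127 in exposure 2 (1.83%) and 103 in exposure 3 (1.98%). They were at least 1 unit downward in 5, 1 and 171 features (0.072%, 0.0144% and 3.29%).

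**Figure D4:**
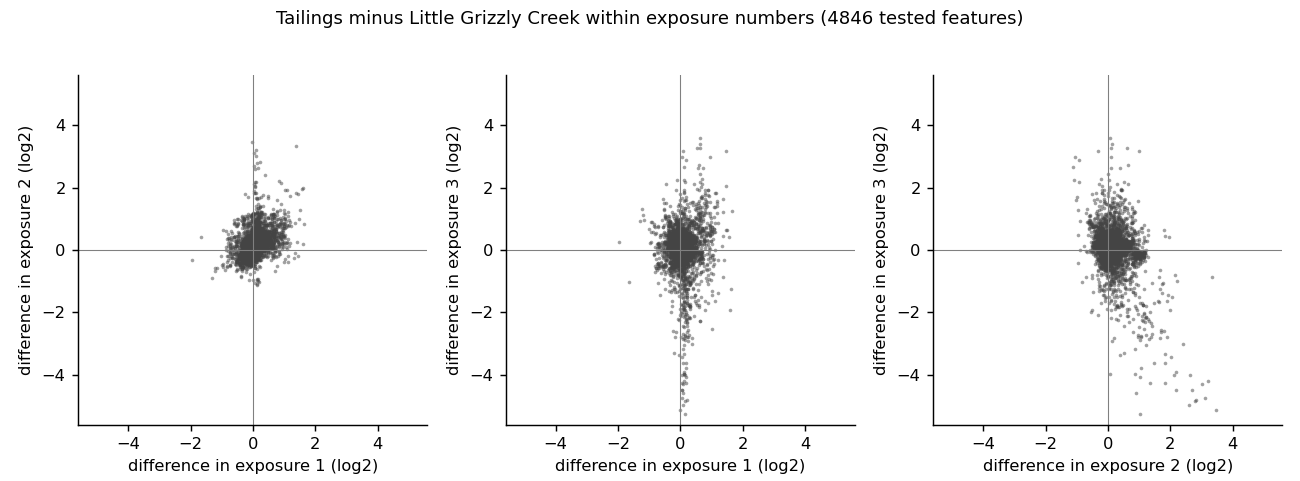
Tailings minus Little Grizzly Creek (log2) in 1 exposure number against another, one point for each of 4846 tested features. Points lean along the rising diagonal for exposures 1 and 2 and along the falling diagonal for 2 and 3, where a tail of features was higher in tailings water in exposure 2 and lower in exposure 3, by as much as -5.12 for P13AA7 and -5.27 for P3DD12.

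Exposures 2 and 3 moved a common set of features in opposite directions. Of the 127 features higher in tailings water in exposure 2, 59 were among the 171 lower in exposure 3, which is 46.5% of the first list and 34.5% of the second, and none was among the 103 higher in exposure 3. The largest such difference in exposure 2 was P13AA7, at 0.875 in tailings and -2.58 in creek water. In exposure 3 the same feature stood at -4.73 in tailings and 0.39 in creek water, and in exposure 1 at 0.291 and 0.311. P3DD12, with the largest downward difference in exposure 3, stood at -4.72 in tailings and 0.55 in creek water there. In exposure 2 it stood at 0.591 in tailings and -0.442 in creek water, and in exposure 1 at 0.276 and 0.123. In exposure 1 the waters differed by -0.0201 and 0.152 in these features, and in exposure 3 by -5.12 and -5.27.

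These swings were not limited to the 2 waters. P13AA7 was at -3.63, -0.74 and 1.89 in upstream exposures 1, 2 and 3 and at 1.1, -0.869 and 4.99 in portal exposures. P3DD12 was at -1.5, -0.621 and 0.59 upstream and at 1.08, -0.992 and 3.59 in portal water. The 171 features lower in tailings exposure 3 had a median of -1.58 in that exposure and 0.436 in creek exposure 3, values that chose them. In exposures that did not choose them, their median was 0.215 in tailings and 0.133 in creek exposure 1 and 0.0138 and -0.918 in exposure 2. It was 0.337, -0.467 and 1.9 in portal exposures 1, 2 and 3, where the last rests on 117 of the 171 features, and -0.402, -0.323 and 0.585 in upstream exposures. In exposure 3 the median was thus below control in tailings water and above it in the other 3 waters, and in exposures 1 and 2 it had no common side.

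Other features with the largest difference of a number varied in how far it recurred. P11DC5, the largest upward difference of exposure 1, stood at 2.51, 0.544 and 2.25 in tailings exposures 1, 2 and 3 and at 0.386, -0.0827 and 1.29 in creek exposures. It was higher in tailings water in each number, by 2.12, 0.627 and 0.959, but was not tested for want of portal values. P11AG7, the largest downward difference of exposure 1, stood at -1.88, -0.809 and 0.877 in tailings and -0.579, 0.0947 and -0.0684 in creek exposures, so its sign turned in exposure 3. P11AB2, the only feature lower by 1 unit on both arrays in exposure 2, was at -0.668 in tailings and 0.462 in creek water there, and at -0.373 and -3.03 in exposure 3. A7H7, the largest upward difference of exposure 3, was at -2.19 in tailings and -5.47 in creek water there, far under control in both, and at 0.987 and 0.365 in exposure 2.

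The 103 features higher in tailings exposure 3 had medians of 0.962 in that exposure and -0.428 in creek exposure 3. Their difference in exposure 1, which did not choose them, had a median of 0.612, and 81 of 101 were higher in tailings water there. In exposure 2 the median difference was 0.0514, and 58 of 102 were higher. The 40 features higher in exposure 1 had median differences of 0.877 in exposure 2 and 0.643 in exposure 3, with 29 of 37 and 21 of 31 higher in tailings water. Over all 4909 features with 6 values, the sign of the difference was the same in 70.9% between exposures 1 and 2. It was the same in 42.1% between 1 and 3 and in 43.8% between 2 and 3. Of the 40, 12 were also among the 127 higher in exposure 2 (30% and 9.45% of the lists) and 6 among the 103 higher in exposure 3 (15% and 5.83%). Another 4 were among the 171 lower in exposure 3 (10% and 2.34%).

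**Figure D5:**
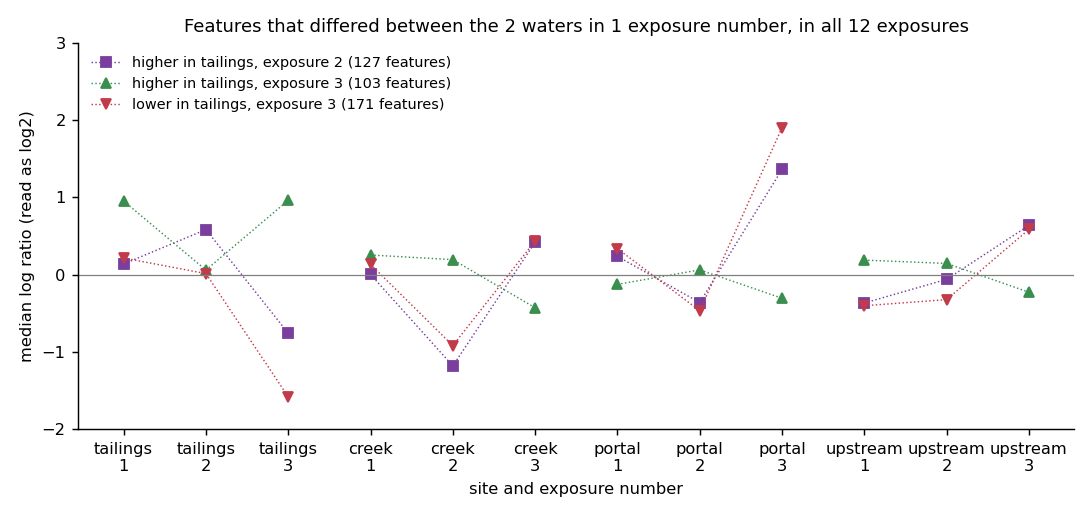
Median log ratio (vertical, read as log2) in each of the 12 exposures (horizontal, by site and exposure number) of 3 sets of features chosen for a difference of at least 1 unit between tailings and creek water on both arrays of 1 exposure number. The sets higher in exposure 2 and lower in exposure 3 follow nearly the same course, at -0.757 and -1.58 in tailings exposure 3, 0.419 and 0.436 in creek exposure 3, and 1.36 and 1.9 in portal exposure 3.

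Differences of moderate size that held in all 3 numbers ran in 1 direction. A gap of at least 0.5 units in every exposure number was found upward in 55 of 4909 features (1.12%) and downward in 0. The 55 kept their sign on all 6 pairs of arrays in 51, which their choice on the means of these pairs favours. Their level moved widely from number to number: the median was -0.267, 0.946 and -1.74 in tailings exposures 1, 2 and 3 and -1.01, 0.209 and -2.89 in creek exposures. In the upstream exposures, which did not choose them, it was -1.28, 0.46 and -1.5. The groups of the 2 waters overlapped in all but 19 of the 55, although within each number tailings water was higher. Among all 4846 tested features with 6 values, the tailings exposures lay above the creek exposures in 280 (5.78%). The choice of the 55 favours such a gap. By limma 11 of the 51 tested had risen in tailings water against control and 2 had changed in creek water. Of all tested features 8.49% and 4.06% were called in either direction, and 398 of 6504 had risen in tailings water. The 55 were chosen on the gap between the waters, so no test of that gap is given. The same tailings values enter the calls against control, so the 11 rises are partly fixed by the choice. Of the 55, 34 had IDs that start with A, as had 1155 of the 4909 features they were drawn from. In these IDs 22.5% of the exposure values of both waters were blank, against 7.06% among IDs that start with P. The part of these blanks in the gap was not tested.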

How the data were processed

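The authors deposited 1 centred log ratio (read here as log2, since the base is not stated) for each feature and array. Per the labels' protocols, cDNA of exposed and unexposed whole animals was labelled with Cy3 or Cy5 and the dyes were switched for the second array. Scanning, background correction, normalisation and filtering are not given in the sources used here. Blank cells were treated as values left out, and the brightness behind a ratio is unknown. An exposure value is the mean of both arrays and needs both. Features with at least 2 exposure values at each of the 4 sites were tested, 6504 in all. limma 3.58.1 (lmFit, eBayes) in R 4.3.3 fitted 1 mean per site with a common spread over 12 exposures. Adjusted p-values are Benjamini-Hochberg over all tested features, with a threshold of 0.05, and intervals are 95% moderated t intervals. Permutation tests used scipy 1.17.1. The scripts were tested on simulated data.

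The labels call exposures biological replicates and share numbers across sites. Deviations of same-numbered tailings and creek exposures from their site means correlated at 0.599, 0.5 and 0.392. The numbers were therefore taken to pair the exposures in the comparisons within numbers and in the fits with a block. The main fit, with its calls and intervals, does not use this pairing. The labels name no batch or hybridisation day. The compared waters, the named features and the settings were chosen with earlier results of these data known. Named features are the 2 risen and 2 fallen most at both sites with 1 sign in all 6 exposures, the 2 higher and 2 lower in tailings water with the smallest p among those without overlap, the largest difference each way shared by both arrays of each exposure number, and the narrowest interval each way among features changed at both sites.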

Additional observations from a re-analysis of the deposited data

Results flagged for a closer look

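In 10 of 4909 features every tailings exposure was above control and every Little Grizzly Creek exposure below it, and in 9 the reverse held. The medians of the first were 0.283 in tailings and -0.238 in creek water, and those of the second -0.101 and 0.0727. In 0 of these features were both means at least 0.5 units from 0. The difference was not tested for these features as a list, and none of the tested features passed the threshold between the waters.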

How the results depend on the processing

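The count of features that differed between tailings and Little Grizzly Creek water was 0 in all 22 alternatives, replicate block included. The 4 features named for that difference kept their direction in all 83 alternatives in which they could be fitted, and none passed, with adjusted p-values from 0.0759 to 1 by limma. Against control the calls depended more on the setting. For tailings water there were 235 in a fit of the 2 sites, 838 with the exposure number as a replicate block, 52 over IDs starting with A, and 167 to 556 when an exposure or an exposure number was left out. For creek water there were 158 in a fit of the 2 sites, 658 and 687 with the replicate block over all sites and over these 2, 141 over features with all 12 values, 452 with a dye term, 150 with a trended and robust spread, 66 over IDs starting with A, and 75 to 272 with exposures left out. Features held within 1 unit numbered 2993 of 3661 with all 12 values, 1122 of 1826 with IDs starting with A, where fewer features were tested, and 3566 to 4855 with exposures left out. The weighted slope was 0.523 over IDs starting with A and 0.916 to 1.23 without one exposure number, the highest without number 1. The correlation of the differences of exposures 1 and 3 turned to -0.0178 over IDs starting with P. The cause of these changes was not tested. The settings on ID letters, and those of the correlations and of the rises per exposure, were chosen after seeing the data. Signal over background is unknown, and the intervals rest on 3 exposures per water.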

Other observations

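Medians of features grouped by the prefix of their ID differed between the waters for some prefixes. Each of 20 prefixes, A1 to A7 and P1 to P13, covers 384 features. For prefix A4 the median of tailings minus Little Grizzly Creek was 0.227, 0.194 and 0.169 in exposures 1, 2 and 3, and for A7 it was 0.139, 0.158 and 0.326. In 4 of the 7 A prefixes the median was above 0 in all 3 numbers, while in the other 3 it was below 0 in exposure 3. It was above 0 in all numbers in 0 of the 13 P prefixes, whose medians lay between -0.0678 and 0.0881. The level itself moved with the exposure number in both waters: the median of A4 was -0.0715, 0.231 and -0.788 in tailings exposures 1, 2 and 3 and -0.253, 0.0358 and -0.628 in creek exposures. These levels take every value held in an exposure. The differences take only features with values in both waters, 192 for A4 in exposure 3. There the tailings level lay below the creek level, although the median difference was 0.169. The part of the blanks in this was not tested. Of the exposure values of both waters, 14.8% were blank for A4 and 23.4% for A7, against 7.06% over the P prefixes, and 167 and 170 of the 384 features of A4 and A7 had all 6 values. These shifts were seen in the data first and carry no test.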
